A study of Homo sapiens with 12 samples.

Results

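PKP1, PKP2, PKP3, PKP4, DSP, DSG2, DSC2, JUP and PERP, the 4 plakophilins and their partners in the desmosome, are 9 of the 14828 genes in the expression table. They were taken by gene symbol. PKP1 was chosen by its measured log2 RPKM, which went opposite ways with the CENPA-targeting hairpins, and the other 8 were added because they belong to its family or to the same junction. The contrasts of PKP1 therefore chose the set, and its values are given as a description with no test. All 9 passed the filter on low values, a mean log2 RPKM of at least -3, that left 14624 genes. RPKM scales reads by gene length and library size, so levels on this scale may be set side by side between genes.

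The samples were RNA-seq libraries of 22Rv1, a human prostate carcinoma cell line. All cells carried a doxycycline-inducible lentiviral short hairpin RNA (pTRIPZ Tet-On) as a puromycin-selected stable population, encoding a nontargeting hairpin (shNT) or a hairpin against CENPA, the centromeric histone H3 variant (shCENPA1 or shCENPA2). Doxycycline at 2 µg/ml for 72 h induced the hairpins, and the methods describe no separate handling of shNT. Each shRNA had 2 libraries, sequenced on 2 lanes each, and the lanes were averaged. Nothing says that the libraries came from separate cultures, so their spread and the p-values may be technical, and both CENPA-targeting groups are compared with the same shNT libraries.

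Desmosomes are patch-like junctions that couple the intermediate filaments of neighbouring epithelial cells. Desmogleins and desmocollins are the cadherins that bridge the gap between the cells. Their tails bind plakoglobin (JUP) and plakophilins, which in turn recruit desmoplakin (DSP), the linker to keratin filaments. Simple and glandular epithelia use DSG2 and DSC2 as their desmosomal cadherins, whereas PKP1 is best known from stratified epithelia such as the epidermis. PERP is a tetraspan membrane protein needed for desmosome assembly and a transcriptional target of p53 and p63.

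On GRCh38 (GENCODE 44), PKP1 lies at chr1:201283452-201332993 on the plus strand and PKP2 at chr12:32790745-32896798 on the minus strand. PKP3 lies at chr11:392614-404908 and PKP4 at chr2:158456952-158682879, both on the plus strand. DSP is at chr6:7541338-7586714 on the plus strand and PERP at chr6:138088505-138107419 on the minus strand. JUP is at chr17:41754604-41786931 on the minus strand. The cadherin genes share chromosome 18, with DSC2 at chr18:31058840-31102522 on the minus strand, DSG2 at chr18:31498177-31549008 on the plus strand and 395654 bases between them.

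Start-site windows, 250 bases before to 50 bases after the start in RefSeq (GRCh38.p14), were at hand for 7 of the 9 members, with none for PKP2 and PKP3. Those of PKP1, DSP and PERP are shown because PKP1 gave the set its name and DSP and PERP are the members that fell with both hairpins. They are PKP1 at chr1:201283256-201283555 (plus strand), DSP at chr6:7541421-7541720 (plus strand) and PERP at chr6:138107370-138107669 (minus strand), and capitals mark the motif matches described after them.
PKP1: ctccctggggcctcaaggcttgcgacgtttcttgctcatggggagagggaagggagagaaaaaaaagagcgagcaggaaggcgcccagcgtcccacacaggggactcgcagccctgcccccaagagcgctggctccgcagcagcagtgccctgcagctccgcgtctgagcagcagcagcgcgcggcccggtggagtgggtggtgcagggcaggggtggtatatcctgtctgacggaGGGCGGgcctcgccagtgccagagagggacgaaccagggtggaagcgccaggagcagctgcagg
DSP: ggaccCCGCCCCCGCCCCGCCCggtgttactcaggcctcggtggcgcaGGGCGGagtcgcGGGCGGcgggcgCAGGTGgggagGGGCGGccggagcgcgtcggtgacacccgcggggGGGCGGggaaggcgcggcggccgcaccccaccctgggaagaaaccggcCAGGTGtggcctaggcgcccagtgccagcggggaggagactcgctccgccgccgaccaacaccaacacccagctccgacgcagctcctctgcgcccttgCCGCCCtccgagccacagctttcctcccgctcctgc
PERP: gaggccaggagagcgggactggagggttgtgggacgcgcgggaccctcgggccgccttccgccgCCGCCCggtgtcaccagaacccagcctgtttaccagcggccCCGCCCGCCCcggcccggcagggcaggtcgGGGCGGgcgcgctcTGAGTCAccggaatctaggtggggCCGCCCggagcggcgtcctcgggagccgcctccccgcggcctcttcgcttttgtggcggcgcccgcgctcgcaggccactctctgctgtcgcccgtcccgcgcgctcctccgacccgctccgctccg

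Each window was searched on both strands for the GC box GGGCGG, the CCAAT box CCAAT, the TATA box TATAAA, the E box CACCTG, the AP-1 site TGANTCA and the Grainyhead site AACCNGTT, and neighbouring GC boxes may overlap. Over all 35116 windows of the same length, 45.0% held the GC box, 34.6% CCAAT, 11.5% TATAAA, 20.6% the E box, 7.71% the AP-1 letters and 1.73% the Grainyhead letters. The PKP1 window held a GC box match, whose first base lay 14 bases before the start, and no match to the other 5 motifs. The DSP window held 8 GC box and 2 E box matches. The PERP window held 5 GC box matches and an AP-1 match, TGAGTCA, which began 101 bases before the start. These matches describe the letters of the windows and say nothing about which factors bind there.

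CENPA itself checks the labels. Its log2 RPKM was 2.46 and 2.18 for shNT, 0.51 and 0.58 for shCENPA1, and -0.47 and -0.41 for shCENPA2. The CENPA mRNA was thus 70.9% lower with shCENPA1 and 85.3% lower with shCENPA2 (limma adjusted p = 0.000287 and 1.13e-05). Libraries held 79172294 to 133074655 reads on genes, and every member other than PKP1 had 2465 reads or more in each. In these bulk libraries, fewer cells of a kind and less RNA per cell cannot be told apart. All 8 luminal prostate markers examined were present, with a summed RPKM of 833 to 893. Of the other cell types, 4 basal and 4 endothelial markers were not analysed here.

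In shNT cells the desmosome mRNAs spanned a wide range of levels. PERP was highest at a mean RPKM of 51.8, followed by JUP at 44.2, DSG2 at 38.0, PKP3 at 28.5 and DSP at 21.3. A lower tier held PKP4 at 7.36, PKP2 at 4.56 and DSC2 at 2.54, and PKP1 was the least abundant at 0.571. The ranges of neighbouring genes in this order did not overlap. With shCENPA1 the order was JUP, PKP3, DSG2, PERP, DSP, PKP4, PKP2, DSC2 and PKP1, in which the libraries of PKP3 and DSG2 overlapped. With shCENPA2 it was JUP, PERP, DSG2, PKP3, DSP, PKP4, DSC2, PKP2 and PKP1, in which PERP overlapped DSG2 and DSC2 overlapped PKP2. PERP thus led in shNT cells, ranked below JUP, PKP3 and DSG2 with shCENPA1 and below JUP with shCENPA2, while PKP1 was last in each group.

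**Figure D1:**
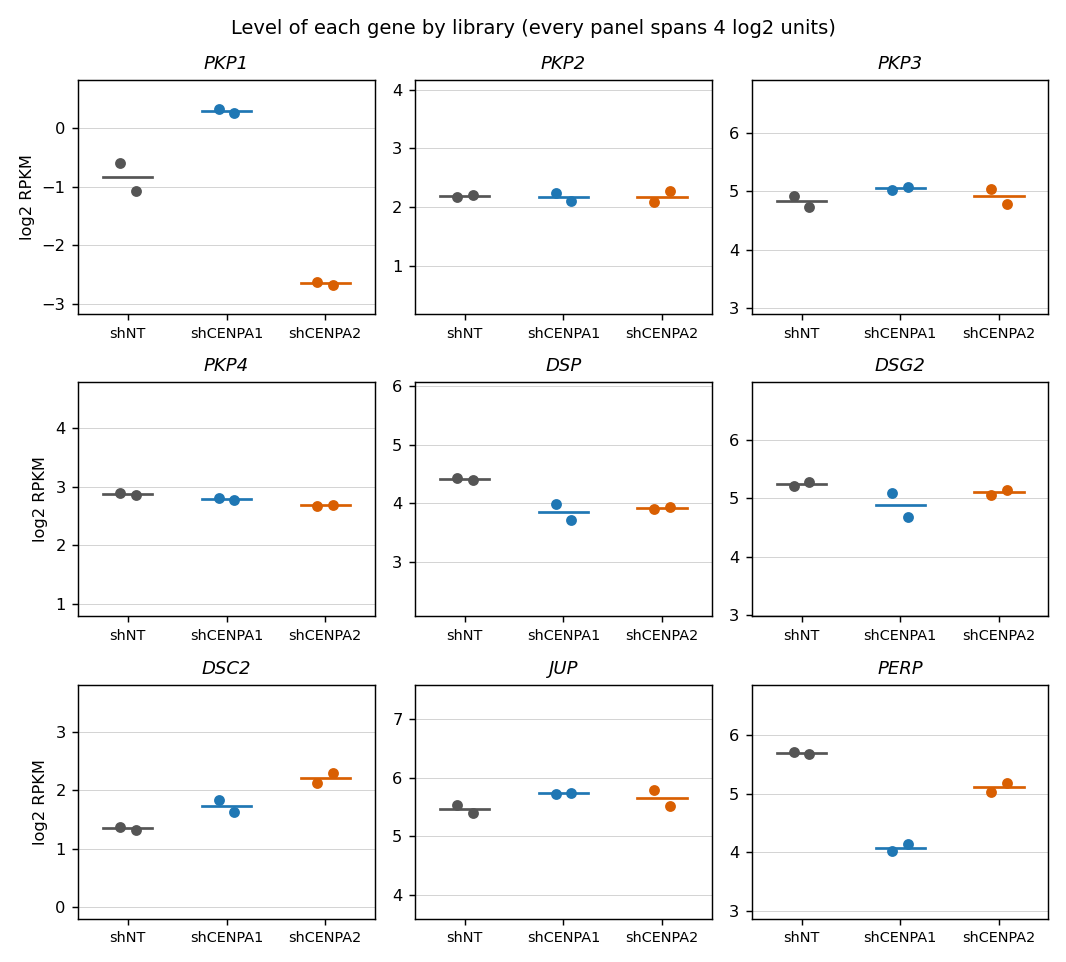
Log2 RPKM (y axis) of the 9 genes in the shNT, shCENPA1 and shCENPA2 libraries, 1 panel per gene, each spanning 4 log2 units. Points are libraries (2 per group) and horizontal bars are group means. PKP1 sits above shNT with shCENPA1 and below it with shCENPA2, PERP and DSP are lower in both knockdown groups, and DSC2 is higher.

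PKP1 was the gene whose direction depended on the hairpin. Its log2 RPKM was -0.59 and -1.07 for shNT, 0.33 and 0.26 for shCENPA1, and -2.62 and -2.67 for shCENPA2. Both shCENPA1 libraries lay above both shNT libraries, and both shCENPA2 libraries lay below them. The group means were -0.83 ± 0.34 for shNT, 0.30 ± 0.05 for shCENPA1 and -2.65 ± 0.04 for shCENPA2 (SD, n = 2 libraries each). The level was thus 2.19-fold higher with shCENPA1 and 3.53-fold lower with shCENPA2 than with shNT, and 7.71-fold lower with shCENPA2 than with shCENPA1.

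PKP1 was also the member with the fewest reads. The libraries counted 448 and 251 PKP1 reads for shNT, 629 and 771 for shCENPA1, and 83 and 130 for shCENPA2. Its lanes differed by up to 0.29 on the log2 scale within a library, against at most 0.12 for any other member, and its shNT libraries were 0.48 apart. These gaps were smaller than the distances between the groups. PKP1 was chosen for those distances, so the comparison is a description and carries no test. On the linear scale the change was small in absolute terms, from a mean RPKM of 0.571 in shNT cells to 1.23 with shCENPA1 and 0.160 with shCENPA2. Adding 1 RPKM to every value before the logarithm shrank the differences from shNT to 0.51 with shCENPA1 and -0.44 with shCENPA2, with unchanged direction.

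Opposite movement of this size was rare in the table. Of the 14624 genes, PKP1 was the 1 gene higher by over 1 log2 unit with shCENPA1 and lower by over 1 with shCENPA2. The reverse pattern was held by 1 gene, SMIM18 (named after its values were seen), for which shNT gave 16 and 17 reads, shCENPA1 0 and 5, and shCENPA2 74 and 202. By contrast, 398 genes differed from shNT by over 1 log2 unit with the same sign for both hairpins. These counts describe the choice of PKP1 and carry no test.

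The genes whose pattern was nearest to that of PKP1 shared its fall with shCENPA2 more than its rise with shCENPA1. The choice of PKP1 partly set this, because no other tested gene moved by over 1 log2 unit in both of its directions. Likeness was the root mean square distance between the log2 RPKM of the 6 libraries, each gene centred on its own mean. The 5 nearest were ALDH1A1, a retinaldehyde dehydrogenase (distance 0.45), GATA3, a zinc finger transcription factor of epithelia (0.46), SPINK1, a secreted trypsin inhibitor (0.51), WIF1, a secreted WNT antagonist (0.53), and GATA3-AS1, the antisense transcript beside GATA3 (0.53). Their differences from shNT were -1.33 to -2.58 with shCENPA2, but 0.02 to 0.52 with shCENPA1, where PKP1 differed by 1.13. GATA3 came closest to the PKP1 pattern in direction, at 0.52 with shCENPA1 and -1.33 with shCENPA2. WIF1 rested on 10 to 114 reads per library, and reads of GATA3 and GATA3-AS1 can be told apart only if counting used the strand, which is not given in the sources used here.

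**Figure D2:**
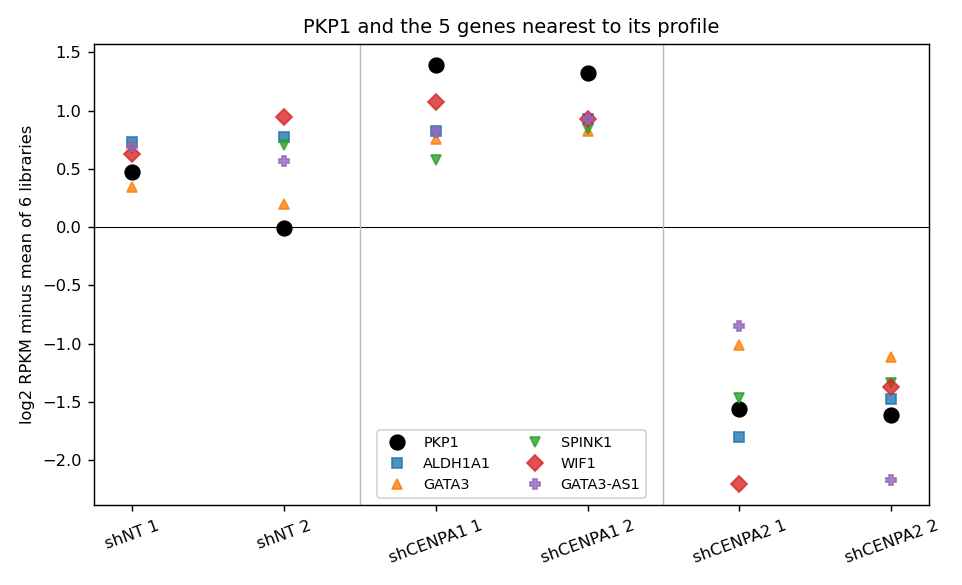
Log2 RPKM minus the mean of the 6 libraries (y axis) for PKP1 (black circles) and the 5 genes nearest to its profile, by library (x axis). All 6 genes are low in the shCENPA2 libraries, and PKP1 has the highest point in both shCENPA1 libraries.

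The other plakophilins showed no difference that passed the test, which was an adjusted p under 0.05 from limma over all 14624 genes. PKP3, the plakophilin of most simple and stratified epithelia, had a log2 RPKM of 4.92 and 4.74 with shNT, 5.02 and 5.08 with shCENPA1, and 5.04 and 4.79 with shCENPA2. Its shCENPA1 libraries lay above those of shNT, while its shCENPA2 libraries overlapped them, and the differences of 0.22 ± 0.11 and 0.08 ± 0.11 (SE) did not pass (limma adjusted p = 0.287 and 0.654). PKP2, the plakophilin of heart and simple epithelia, was at 2.17 and 2.21 with shNT, 2.24 and 2.11 with shCENPA1, and 2.08 and 2.27 with shCENPA2. All 3 groups overlapped, with differences of -0.01 and -0.02 ± 0.12. PKP4, an armadillo protein found at adherens junctions as well as desmosomes, was at 2.90 and 2.86, then 2.80 and 2.78, then 2.67 and 2.70 in the same order. Its groups did not overlap, but the differences of -0.09 and -0.19 ± 0.10 from shNT did not pass (limma adjusted p = 0.641 and 0.212).

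PKP1 made up little of the plakophilin mRNA, and the family total did not follow its fall with shCENPA2. The summed RPKM of the 4 genes was 43.0 and 39.1 with shNT, 45.5 and 46.1 with shCENPA1, and 43.8 and 39.0 with shCENPA2. The shCENPA1 sums lay above both shNT sums, and the shCENPA2 sums ran from just below to just above the shNT values. PKP1 contributed 1.55% and 1.22% of the sum with shNT, 2.77% and 2.60% with shCENPA1, and 0.371% and 0.402% with shCENPA2. PKP3 supplied 68.4% to 75.4% in every library.

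**Figure D3:**
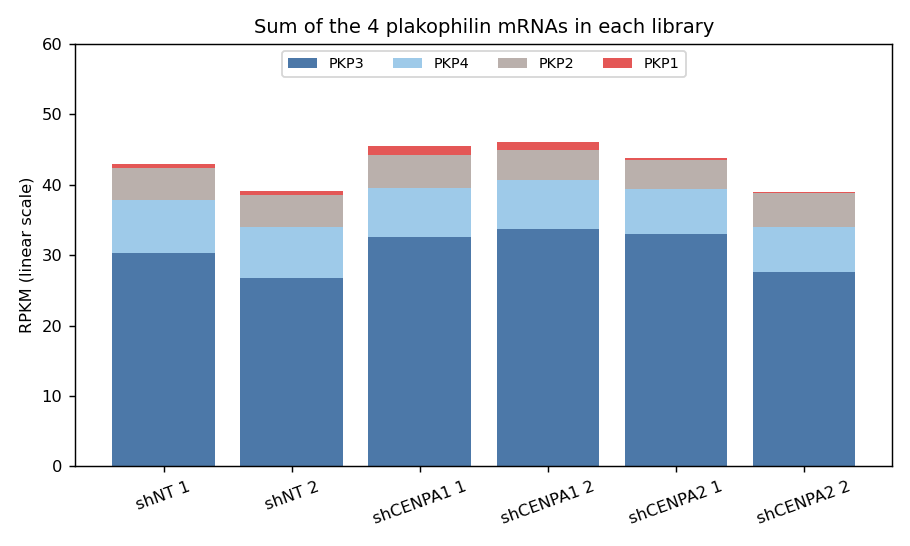
Stacked bars of RPKM (y axis, linear, from 0) of PKP3, PKP4, PKP2 and PKP1 in each of the 6 libraries (x axis). The sums lie between 39.0 and 46.1, PKP3 is the largest block in every bar, and PKP1 is a thin strip at the top that is widest with shCENPA1.

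Among the 8 members other than PKP1, 2 passed with shCENPA1, both lower, and 3 passed with shCENPA2, of which 2 were lower and 1 higher. Of all genes tested, 7.14% passed with shCENPA1 (2.69% higher and 4.45% lower) and 18.5% with shCENPA2 (8.05% higher and 10.5% lower). The median log2 difference of the 8 was -0.05 and -0.08, against 0.003 and 0.012 over all genes. Between the hairpins 1 of the 8 passed, against 1.42% of all genes. With a 2-fold change also required, 1, 0 and 1 of the 8 passed in these 3 comparisons, against 2.65%, 6.13% and 0.732% of all genes.

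PERP showed the largest change of the tested members. Its log2 RPKM was 5.71 and 5.68 with shNT, 4.02 and 4.13 with shCENPA1, and 5.04 and 5.18 with shCENPA2. No group overlapped another, with shNT highest, shCENPA2 between and shCENPA1 lowest. PERP fell by 1.62 ± 0.09 (SE) on the log2 scale with shCENPA1, which left it 67.4% lower (limma adjusted p = 3.58e-05). It fell by 0.59 ± 0.09 with shCENPA2, 33.4% lower (limma adjusted p = 0.00214). The difference between the hairpins, 1.03 ± 0.09 higher with shCENPA2, also passed (limma adjusted p = 0.00117). PERP was thus lowest with shCENPA1, the hairpin that left more CENPA mRNA (limma adjusted p = 0.0209 between the hairpins for CENPA). A relation between the PERP and CENPA levels was not tested. All 3 PERP calls held in the alternative fits, those without 1 library among them, at limma adjusted p of at most 0.00532, 0.0215 and 0.0346.

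DSP fell by a similar amount with both hairpins. The log2 RPKM of this plakin, the anchor of keratin filaments, was 4.43 and 4.40 with shNT, 3.98 and 3.71 with shCENPA1, and 3.89 and 3.94 with shCENPA2. All 4 knockdown libraries lay below both shNT libraries, and the knockdown groups overlapped each other. The drop was 0.57 ± 0.11 (SE) with shCENPA1, 32.5% lower, and 0.50 ± 0.11 with shCENPA2, 29.2% lower (limma adjusted p = 0.0122 and 0.0107), and the hairpins differed by 0.07 (limma adjusted p = 0.831). Without shNT library 1 or 2 the differences were nearly the same, -0.56 and -0.58 with shCENPA1 and -0.49 and -0.51 with shCENPA2, but the limma adjusted p was 0.0721 and 0.069, and 0.0711 and 0.0599. The shCENPA1 call was also lost without shCENPA1 library 2 (-0.43, limma adjusted p = 0.0709) and in limma without the trend (adjusted p = 0.0554). Calls over all genes fell too when a shNT library was left out, from 1044 to 538 and 445 with shCENPA1 and from 2712 to 1436 and 1360 with shCENPA2.

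**Figure D4:**
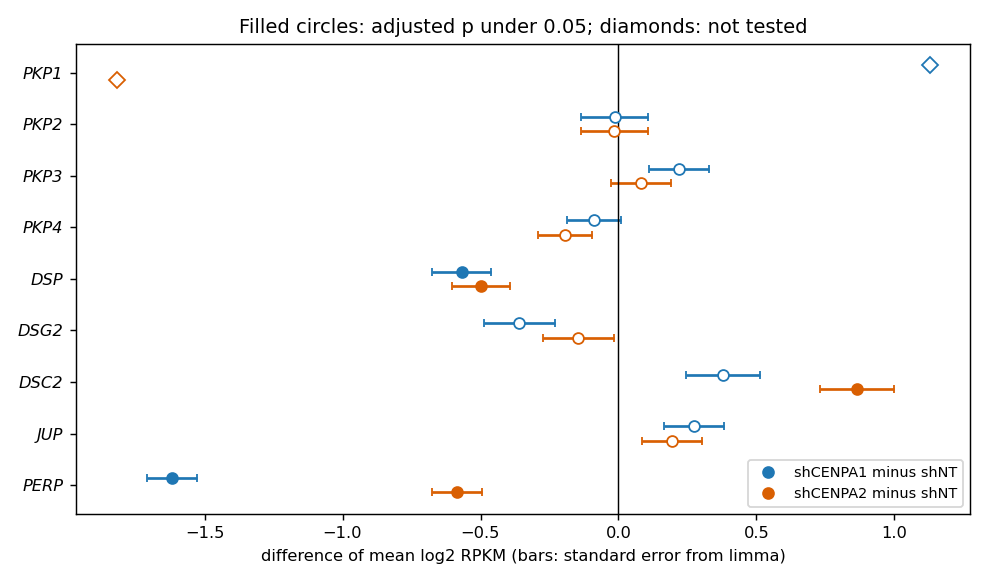
Difference of mean log2 RPKM from shNT (x axis) for the 9 genes (y axis), for shCENPA1 (blue) and shCENPA2 (orange), with bars for the limma standard error. Filled circles passed at adjusted p under 0.05, open circles did not, and the PKP1 diamonds were not tested. PERP and DSP lie left of 0 for both hairpins, DSC2 right of 0, and PKP1 on both sides.

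Of the desmosomal cadherins, DSC2 rose with shCENPA2 and DSG2 did not pass with either hairpin. DSC2, a desmocollin, was at 1.38 and 1.31 log2 RPKM with shNT, 1.83 and 1.62 with shCENPA1, and 2.13 and 2.29 with shCENPA2. No group overlapped another. DSC2 rose by 0.86 ± 0.13 (SE) with shCENPA2, 1.82-fold (limma adjusted p = 0.00209), while the difference of 0.38 ± 0.13 with shCENPA1 did not pass (limma adjusted p = 0.135), nor did that of 0.49 between the hairpins (limma adjusted p = 0.143).

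DSG2, the desmoglein of simple epithelia, was at 5.21 and 5.29 with shNT, 5.10 and 4.68 with shCENPA1, and 5.06 and 5.15 with shCENPA2. All knockdown libraries lay below both shNT libraries, but the shCENPA1 libraries were far apart. The differences of -0.36 ± 0.13 and -0.15 ± 0.13 did not pass (limma adjusted p = 0.14 and 0.482). Without shCENPA1 library 1, the shCENPA1 difference was -0.57 and passed (limma adjusted p = 0.0332). DSC2 made up 6.57% and 5.98% of the summed RPKM of both cadherins with shNT, 9.38% and 10.7% with shCENPA1, and 11.6% and 12.1% with shCENPA2, so DSG2 remained the main cadherin mRNA in each library.

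JUP, the armadillo protein plakoglobin that desmosomes share with adherens junctions, was at 5.54 and 5.39 with shNT, 5.72 and 5.75 with shCENPA1, and 5.79 and 5.52 with shCENPA2. Its shCENPA1 libraries lay above both shNT libraries and its shCENPA2 libraries overlapped them. The differences of 0.27 ± 0.11 and 0.19 ± 0.11 (SE) did not pass (limma adjusted p = 0.179 and 0.257).

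The desmosome members sat among other junction and epithelial genes, for which 8 lists of 99 genes were examined and 65 were tested. With shCENPA1, 4 of the 65 passed (6.15%, against 7.14% of all genes), 1 higher and 3 lower. With shCENPA2, 17 passed (26.2%, against 18.5%), 6 higher and 11 lower, and between the hairpins 1 passed (1.54%, against 1.42%). The median log2 differences over the lists were 0.00, -0.03 and 0.00. Fits that left out each library in turn leave a group with 1 library, and calls over all genes dropped in them as well, to 397 to 607 with shCENPA1 when a shNT or shCENPA1 library was left out. In these fits, 0 of the 4 shCENPA1 calls and 5 of the 17 shCENPA2 calls held in all 6, namely KRT7, KRT19, OVOL1, VIM and CTNNAL1 with shCENPA2.

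Of the other desmosome and plakin genes, EVPL, PPL, DST and PLEC were tested and none passed with either hairpin or between them, with differences from shNT of -0.42 to 0.36. DSG1, DSG3, DSG4, DSC1, DSC3 and CDSN, which belong mainly to stratified epithelia, were not analysed here. Among the keratins, the filaments that desmosomes anchor, 4 of 11 were tested. KRT8 and KRT18, the main pair of simple epithelia, did not pass, at -0.08 and 0.01 with shCENPA1 and -0.08 and -0.30 with shCENPA2.

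KRT19 and KRT7, which are keratins of glandular and ductal epithelia, were lower with shCENPA2. The log2 RPKM of KRT19 was 4.84 and 4.60 with shNT, 4.55 and 4.68 with shCENPA1, and 2.90 and 2.54 with shCENPA2. The shNT and shCENPA1 libraries overlapped, and both shCENPA2 libraries lay far below them. KRT19 fell by 2.00 ± 0.13 (SE) with shCENPA2 (limma adjusted p = 2.03e-05), and the difference between the hairpins, -1.90 ± 0.13, passed as well (limma adjusted p = 0.000289). KRT7 was at 0.43 and 0.18 with shNT, -1.07 and -0.77 with shCENPA1, and -1.61 and -1.91 with shCENPA2. It fell by 1.23 with shCENPA1 and by 2.07 with shCENPA2 (limma adjusted p = 0.0137 and 0.000355), and the shCENPA1 call was lost without any 1 of the shNT or shCENPA1 libraries (highest adjusted p = 0.13).

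In the adherens junction and p120 list, 2 of 16 genes passed with each hairpin. CDH3, P-cadherin, rose by 0.40 and 0.41 and CTNNAL1, an alpha-catenin-like protein, fell by 0.46 and 0.63 with shCENPA1 and shCENPA2 (limma adjusted p = 0.032 and 0.0149 for CDH3, and 0.0229 and 0.00224 for CTNNAL1). The shCENPA1 calls of both genes were lost without any 1 of the shNT or shCENPA1 libraries (highest adjusted p = 0.333 for CDH3 and 0.214 for CTNNAL1), and the shCENPA2 call of CDH3 without shNT library 1 or 2 or shCENPA2 library 1 (highest adjusted p = 0.156). In the tight junction list, 0 of 18 passed with shCENPA1 and 3 with shCENPA2. These were CLDN1, a claudin, which fell by 1.08, and the polarity genes CRB3 and PATJ, which rose by 0.47 and 0.46 (limma adjusted p = 0.0194, 0.0194 and 0.0154). Each of these 3 lost its call in 2 of 6 fits without 1 library, among them the fit without shNT library 2.

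Epithelial transcription and splicing factors passed in 1 of 11 cases with shCENPA1 and in 5 with shCENPA2. GRHL2, a Grainyhead factor that drives epithelial junction genes, fell by 0.39 and 0.35 (limma adjusted p = 0.0342 and 0.0277), and both calls were lost without shNT library 1 or 2 or without library 2 of the hairpin concerned (highest adjusted p = 0.248 and 0.216). With shCENPA2, OVOL1, an epithelial zinc finger repressor, fell by 1.36 and GRHL1 by 0.51 (limma adjusted p = 0.00529 and 0.0458). KLF4, an epithelial zinc finger factor, rose by 0.36 and ESRP1, an epithelial splicing factor, by 0.35 (limma adjusted p = 0.046 and 0.0219). GRHL1 lost its call in all 6 fits without 1 library, KLF4 in 5 and ESRP1 in 3, while OVOL1 kept it in all 6.

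In the hemidesmosome list, 0 of 6 tested genes passed with shCENPA1 and 2 with shCENPA2, where ITGB4, the integrin subunit of hemidesmosomes, rose by 0.83 and LAMA3, a laminin chain of the basement membrane, fell by 1.13 (limma adjusted p = 0.0432 and 0.0264). ITGB4 kept its call in 1 of 6 fits without 1 library and LAMA3 in 3. Of the squamous and cornified genes 3 of 14 were tested, and SFN, the epithelial 14-3-3 protein sigma and a p53 target, fell by 0.59 with shCENPA2 (limma adjusted p = 0.017, kept in 4 of 6 such fits). Of the mesenchymal genes 3 of 9 were tested. VIM, the intermediate filament vimentin, fell by 0.82 and FN1, fibronectin, by 1.31 with shCENPA2 (limma adjusted p = 0.00272 and 0.0357). FN1 kept its call in 1 of 6 fits and VIM in all 6.

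**Figure D5:**
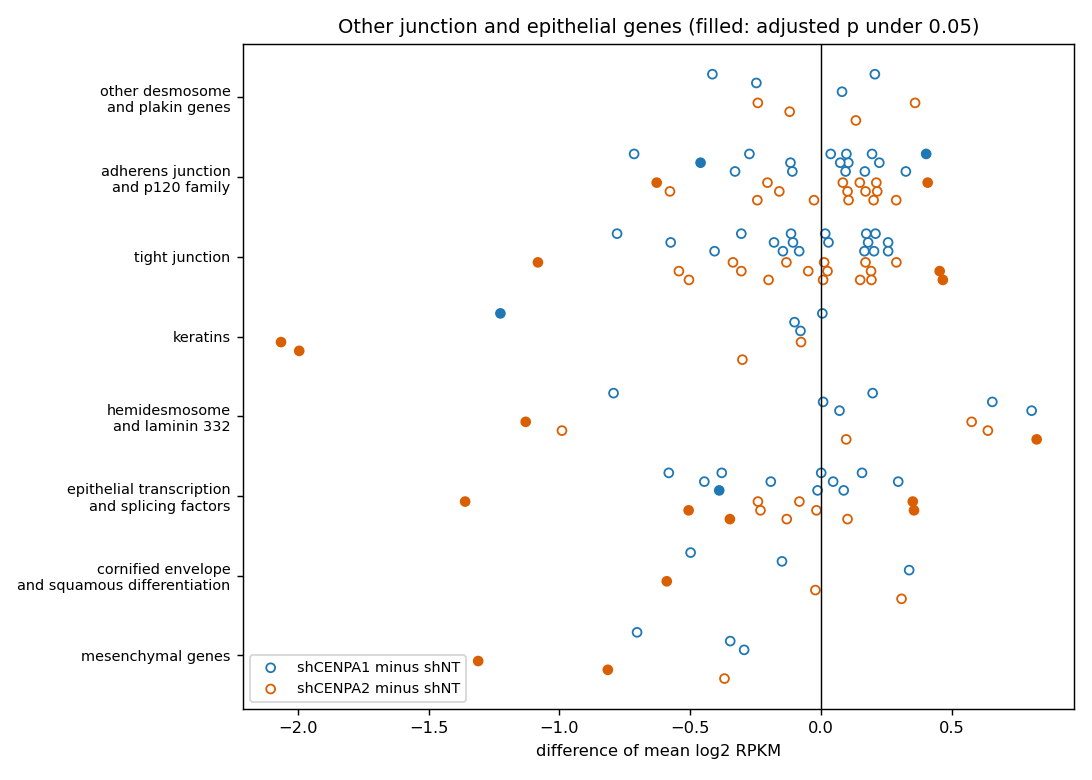
Difference of mean log2 RPKM from shNT (x axis) for the 65 tested genes of 8 junction and epithelial lists (y axis), shCENPA1 in blue and shCENPA2 in orange, 1 circle per gene, filled at adjusted p under 0.05. Most circles lie near 0 on both sides, and the keratins KRT7 and KRT19 with shCENPA2 are the farthest to the left.

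Some stromal markers differed beside these values, and those with a value are given for that reason. Of 6 fibroblast markers, COL1A1, DCN and LUM had a value, and their summed RPKM was 3.68 and 3.95 with shNT, 3.57 and 3.55 with shCENPA1, and 5.98 and 5.86 with shCENPA2. DCN, the proteoglycan decorin, rose by 1.94 with shCENPA1 and by 1.48 with shCENPA2 (limma adjusted p = 0.00271 and 0.0053), though the shCENPA1 call was lost without shCENPA1 library 2 (adjusted p = 0.0595). The mean RPKM of DCN was low, at 0.122 with shNT, 0.463 with shCENPA1 and 0.338 with shCENPA2. LUM, the proteoglycan lumican, was at -0.41 with shCENPA1 and rose by 0.74 with shCENPA2 (limma adjusted p = 0.0966 and 0.00386). COL1A1 passed with neither hairpin, at 0.09 with shCENPA1 and 0.12 with shCENPA2 (limma adjusted p = 0.838 and 0.736). The part of these genes in the results above was not tested.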

How the data were processed

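RNA-seq of 22Rv1 cells with shNT, shCENPA1 or shCENPA2 was analysed from the deposited table of log2 RPKM for 14828 genes in 12 runs. Per the labels and the methods, the authors made strand-specific mRNA libraries (TruSeq), trimmed reads (Trim Galore), aligned them (STAR, hg38), counted genes (HTSeq) and used edgeR. Versions and the annotation are not given in the sources used here. The labels number 4 runs per shRNA as replicates, but the run names show 2 libraries on 2 lanes each, so lanes were averaged and n = 2 libraries.

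After genes averaging below -3 were dropped, limma 3.58.1 (R 4.3.3) was run (3 groups in 1 fit, empirical Bayes with a mean trend), with Benjamini-Hochberg adjustment over 14624 genes and a threshold of 0.05. An SE is the moderated standard error. The log2 values held whole reads for 14828 of 14828 genes (largest distance from a whole read 4.2e-08, prior count 0.25), which gave the reads per library and a limma voom alternative. The recovery was tested on simulated data, as was the fit.

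The members and the gene lists were chosen with earlier results of these data known. Named are the members, CENPA, and up to 4 passing genes per list and comparison by size. The fibroblast markers with a value and the 5 genes nearest to PKP1 are named as well. Libraries of the same number were not positively correlated between groups (correlations of deviations -0.06, -0.10 and -0.14), so no block was used in the main fit. Alternatives changed the filter, scaling, lanes, added constant, trend, samples and each library in turn. Promoter windows are from RefSeq and gene positions from GENCODE 44.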

Additional observations from a re-analysis of the deposited data

Results flagged for a closer look

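PKP1 differed by -2.95 on the log2 scale between shCENPA2 and shCENPA1, because both shCENPA1 libraries lay above and both shCENPA2 libraries below the shNT libraries. This contrast chose the gene, and the difference was not tested. PERP differed between the hairpins by 1.03 (limma adjusted p = 0.00117), lower than shNT with both. KRT19 differed by -1.90 (limma adjusted p = 0.000289), with both shCENPA2 libraries far below the rest. LUM differed by 1.15 (limma adjusted p = 0.00357), and this call was lost without shCENPA1 library 2 (adjusted p = 0.0667).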

How the results depend on the processing

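The 24 differences of the 8 tested members were recomputed in the alternative fits, each of which served many differences, giving 456 values. Of these values, 444 stayed on the same side of the threshold, 6 lost a call and 6 gained one, and 0 called differences changed sign. The losses were all of DSP. The gains were DSG2 and JUP with shCENPA1 and DSC2 with shCENPA1 and between the hairpins. Members other than PKP1 passing with shCENPA1 numbered 2, but 5 with lanes as replicates, 1 without the trend, 1 with a 2-fold change required and 1 to 3 without 1 library. With shCENPA2 they numbered 3, but 0 with the 2-fold change and 2 to 3 without 1 library, and between the hairpins 1, but 2 with lanes as replicates, 2 with voom on recovered reads and 1 without any 1 library.

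Listed genes with shCENPA1 numbered 4, but 9 with lanes as replicates, 2 without the trend, 7 with only the groups compared, 8 with voom, 1 with the 2-fold change and 0 to 6 without 1 library, with 0 without shNT 1, shNT 2 or shCENPA1 2 and 2 without shCENPA1 1. With shCENPA2 they numbered 17, but 11 without the trend, 6 with the 2-fold change and 6 to 15 without 1 library (7 without shNT 1, 6 without shNT 2). Between the hairpins they numbered 1, but 3 with lanes as replicates and 1 to 4 without 1 library. Over all genes, the 1044 calls with shCENPA1 became 1862 with lanes as replicates, 388 with the 2-fold change and 397 to 1403 without 1 library, the 2712 with shCENPA2 became 897 and 1360 to 2596, and the 208 between the hairpins became 519 with lanes, 138 without the trend, 343 with voom, 107 with the 2-fold change and 28 to 372. The cause of these shifts was not tested.

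With the replicate block the counts for members were 2, 3 and 1 and for all genes 868, 2375 and 160, and no call of a member changed. In fits added after seeing the data, of the CENPA-targeting groups alone, the block gave 439 genes and 1 member, and the crossed numbers 757 genes and 1 member. Without a block, a fit of the same groups gave 245 genes and 1 member. The PKP1 difference with shCENPA1 was 0.51 with 1 RPKM added and 0.89 to 1.37 without 1 library. With shCENPA2 it was -1.36 with 0.1 RPKM added, -0.44 with 1 added and -2.06 to -1.58 without 1 library. Between the hairpins it was -2.36, -0.94, -2.85 after quantile normalization and -2.98 to -2.91. With 2 libraries per group, small differences could not be resolved, and PKP1 with shCENPA2 rested on 83 and 130 reads.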
